A study of Mus musculus with 2 samples.

Results

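Cytochrome P450 genes were taken as the autosomal protein-coding genes of GENCODE vM21 whose symbol is Cyp followed by a family number, subfamily letters and a gene number. This rule chose 94 of 20807 autosomal protein-coding genes. Of these, 61 belong to 8 subfamilies with 3 or more members: Cyp2a (4 genes) and Cyp2b (5) on chromosome 7, Cyp2c (15) on chromosome 19, Cyp2d (8) on chromosome 15, Cyp2j (8) and Cyp4a (5) on chromosome 4, Cyp3a (7) on chromosome 5, and Cyp4f, with 8 genes on chromosome 17 and Cyp4f18 on chromosome 8. The other 33 genes are alone in their subfamily or share it with 1 other gene. Subfamily size is not the same as clustering. Cyp2g1, of a smaller subfamily, lies within the span of the Cyp2a genes, and Cyp4b1 lies beside the Cyp4a genes. P450 genes with symbols of another form, such as Cyp51, are not members.

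Cytochromes P450 are heme enzymes that insert an oxygen atom into small lipophilic molecules, using electrons passed on by partner proteins. Families 1 to 3 are best known for the clearance of drugs and foreign compounds in liver and gut, family 4 for the oxidation of fatty acids and eicosanoids, and the other families for single steps of steroid, bile acid, vitamin D and retinoic acid metabolism. Most of the drug-metabolizing genes lie in tandem clusters of close relatives. Embryonic stem cells are not a tissue known for P450 metabolism, but they carry active TET enzymes, which oxidize 5-methylcytosine (mC) to 5-hydroxymethylcytosine (hmC).

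SCoTCH-seq reads C, mC and hmC on both strands of the same DNA molecule, so that each CpG site of a read pair is called as 1 of 9 states. CC is unmodified and MM is methylated on both strands. MC and CM carry mC on 1 strand only, HC and CH carry hmC opposite C, HM and MH carry hmC opposite mC, and the first letter is the plus strand. Genomic DNA came from 2 passages of the mouse embryonic stem cell line E14, grown on gelatin in serum with LIF, and these are replicate 1 and replicate 2 of 1 condition. No treatment or genotype was compared, so no test between groups was possible, and the replicates measure only the spread between 2 samples of 1 line. In the marker check, the promoters of 8 embryonic stem cell marker genes had a median CC level of 98.9% in replicate 1 and 99.5% in replicate 2, although that of Esrrb was at 27.1% and 15.2%. Promoters of the hepatocyte markers that could be read (3 of 6) had a median of 12.1% and 11.9%, and those of the fibroblast markers (3 of 5) 94.3% and 84%.

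Replicate 1 held 143497239 calls over 13676795 CpG sites, with a mean depth of 10.5 calls per site, and replicate 2 held 31306245 calls over 4918612 sites, with a mean depth of 6.36. In the gene bodies of the P450 genes, 64.0% of 17360 reference CpGs were read in replicate 1 and 22.9% in replicate 2, against 70.8% and 26.5% over all genes. Coverage was lowest in the larger subfamilies, with 58.3% and 21.03%, against 71.5% and 25.4% in the smaller ones. Cyp2b13 had no site in either replicate, Cyp2c50 had 7 and 2 gene body sites, and Cyp21a1 had 9 and 0. Levels below are means of the percentage of calls per site. Gene bodies exclude the promoter, which reaches 1 kb to either side of the GENCODE gene start. With at least 20 gene body sites in each replicate, 64 members could be used (40 of the larger and 24 of the smaller subfamilies), and with at least 5 promoter sites, 44 (17 and 27).

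The 6 promoters printed here show how differently these genes were marked, and their 250 bases before the RefSeq start are given in GRCm38.p6, with the CG dinucleotides in capitals. They were chosen after their values were seen. Cyp4v3 stands for a promoter whose calls in this stretch were all CC, Cyp27a1 for one with mostly CC, Cyp2r1 for a CpG-rich promoter with mixed states, Cyp1a1 for a start that the gene annotations place differently, and Cyp19a1 and Cyp2c70 for CpG-poor promoters that were mostly MM.
Cyp4v3 (chr8:45333164-45333413, minus strand): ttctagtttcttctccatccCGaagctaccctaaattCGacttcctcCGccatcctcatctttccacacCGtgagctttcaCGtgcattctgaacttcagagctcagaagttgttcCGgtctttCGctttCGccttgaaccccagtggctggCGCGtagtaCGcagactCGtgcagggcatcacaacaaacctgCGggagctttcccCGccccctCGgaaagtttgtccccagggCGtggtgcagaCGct
Cyp27a1 (chr1:74713285-74713534, plus strand): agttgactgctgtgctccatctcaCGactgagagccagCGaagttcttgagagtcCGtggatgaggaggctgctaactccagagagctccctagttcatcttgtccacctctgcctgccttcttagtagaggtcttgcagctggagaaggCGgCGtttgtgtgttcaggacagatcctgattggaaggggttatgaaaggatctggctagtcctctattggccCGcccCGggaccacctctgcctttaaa
Cyp2r1 (chr7:114562973-114563222, minus strand): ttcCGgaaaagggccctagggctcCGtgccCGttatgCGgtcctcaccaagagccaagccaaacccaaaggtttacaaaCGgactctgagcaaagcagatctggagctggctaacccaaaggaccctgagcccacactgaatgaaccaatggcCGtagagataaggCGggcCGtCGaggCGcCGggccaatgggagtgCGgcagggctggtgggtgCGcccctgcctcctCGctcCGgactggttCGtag
Cyp1a1 (chr9:57697363-57697612, plus strand): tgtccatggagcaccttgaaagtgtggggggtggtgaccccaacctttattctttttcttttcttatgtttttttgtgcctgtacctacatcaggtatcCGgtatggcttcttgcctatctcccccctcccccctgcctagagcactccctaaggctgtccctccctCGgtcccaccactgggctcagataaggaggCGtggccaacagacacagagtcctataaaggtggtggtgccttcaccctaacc
Cyp19a1 (chr9:54268165-54268414, minus strand): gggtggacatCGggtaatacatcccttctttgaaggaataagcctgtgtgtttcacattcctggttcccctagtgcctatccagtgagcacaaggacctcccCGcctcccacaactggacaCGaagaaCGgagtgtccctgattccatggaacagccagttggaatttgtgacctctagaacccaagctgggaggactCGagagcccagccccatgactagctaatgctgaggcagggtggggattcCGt
Cyp2c70 (chr19:40187287-40187536, minus strand): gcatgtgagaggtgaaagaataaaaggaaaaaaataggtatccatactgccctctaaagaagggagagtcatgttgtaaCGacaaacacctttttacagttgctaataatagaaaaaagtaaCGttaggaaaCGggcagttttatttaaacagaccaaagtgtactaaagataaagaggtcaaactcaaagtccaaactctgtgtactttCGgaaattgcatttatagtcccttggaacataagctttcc

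In the stretch before Cyp4v3, a fatty acid hydroxylase, 15 of 17 CGs were read in replicate 1 and 5 in replicate 2, and all 114 and 40 calls were CC. Before Cyp27a1, 6 of 7 CGs had a mean CC level of 98.3% in replicate 1, and the 2 CGs read in replicate 2 had 78.6%. The Cyp2r1 stretch holds 16 CGs, nearly as many as that of Cyp4v3, yet its 6 sites in replicate 1 had a CC level of 46.1%, from 0% at the lowest site to 78.6% at the highest, and an HC/CH level of 18.7%. No CG of this stretch was read in replicate 2. The 6 sites lie from -247 to -97 bp of the start, and the CGs nearer the start were not read in either replicate. The Cyp19a1 stretch had MM levels of 63.4% over 4 sites and 65.7% over 3 sites, and the Cyp2c70 stretch 67.3% over 4 and 78.5% over 3. The Cyp2r1 level covers only the CGs further from its start, so it does not show whether CG number and CC level went together.

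Promoters of P450 genes were less often unmodified than those of other genes. The median promoter CC level of the 44 members was 38.4% in replicate 1 and 31.2% in replicate 2, a mean of 34.8% ± 5.14 (SD, n = 2), against 89.2% and 85.0% over all genes. The 17 promoters of the larger subfamilies had medians of 27.4% and 13.7%, and the 27 of the smaller ones 64.7% and 45.7%. The gap to all genes, of -52.3 percentage points on average, was larger than the spread between the replicates. Promoters of 39 of 49 keratin genes, another family in tandem clusters, had enough sites, with CC medians of 18.2% and 11.5%. Those of 130 of 1087 olfactory receptor genes had 16.5% and 11.2%.

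CpG content differed between these promoters as well. A ratio of observed to expected CpGs of 0.4 or more was found in 13 of 94 members, or 13.8%, against 57.8% of all genes, and all 13 belong to the smaller subfamilies. The limits of these classes were set after the data were seen. In these 13 promoters the CC medians were 86.1% and 86.8%, with a range of 44.9% to 96.2% in replicate 1 and of 31.7% to 92.6% in replicate 2, against 93.7% and 91.2% for all genes of this class. In the class from 0.2 to 0.4, with 21 members, the 15 promoters with enough sites had medians of 32.4% and 30.7%, against 42.1% and 34.0% over all genes. In the class under 0.2, which holds 60 members, the 16 promoters with enough sites had medians of 17.3% and 12.6%, close to 18.1% and 12.9% over all genes. Within each of the 3 classes the medians thus lay nearer to those of other genes than in the comparison of all promoters, and the gap was widest in the middle class in replicate 1. Whether CpG content accounts for the difference was not tested.

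**Figure D1:**
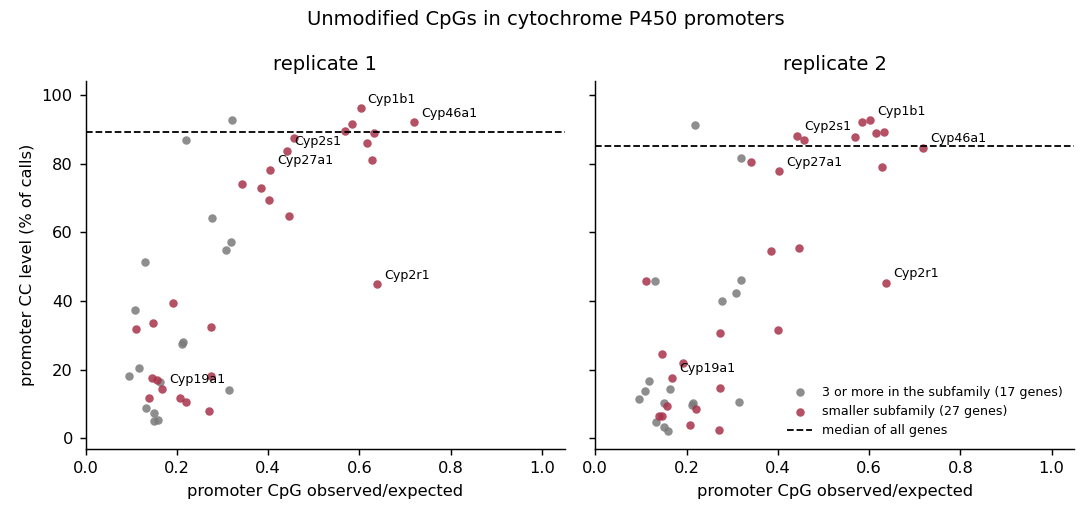
Promoter CC level (percentage of calls, 1 point per gene) against the observed over expected ratio of CpGs in the promoter, for the 44 P450 genes with at least 5 promoter sites in each replicate, with replicate 1 on the left and replicate 2 on the right. Red points are genes of the smaller subfamilies and grey points those of subfamilies with 3 or more members, the dashed line is the median of all genes (89.2% and 85.0%), and Cyp2r1 lies at 44.9% and 45.3%, far below Cyp1b1 at a similar CpG ratio.

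Ranked on the lower replicate, the 5 highest promoter CC levels were those of Cyp1b1, Cyp20a1, Cyp2u1, Cyp39a1 and Cyp4v3. Cyp1b1, which oxidizes estrogens and polycyclic hydrocarbons, had 96.2% over 58 sites and 92.6% over 16 sites. Cyp20a1, an orphan P450 with no settled substrate, had 91.6% and 92.2%, and Cyp2u1, a fatty acid hydroxylase, had 89.0% and 89.2%. Cyp39a1 had 89.5% and 87.7%, and Cyp4v3 had 87.5% and 86.8%. Cyp1b1, Cyp20a1 and Cyp39a1 were the 3 of 44 members above the all-gene median in both replicates, and Cyp2u1 and Cyp4v3 were above it in replicate 2 only. In both replicates 34 of 44 lay below it, against 6410 of 14907 genes. Among the larger subfamilies, Cyp4f17, with 92.8% and 81.7%, and Cyp4f13, with 86.7% and 91.1%, were the only 2 promoters above 80% in both replicates. These 2 were named after their values were seen.

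Family 1 genes, which the aryl hydrocarbon receptor induces in many tissues, differed from one another. At the GENCODE start of Cyp1a1 (chr9:57687928-57703824), CC was at 5.42% over 8 sites in replicate 1, with 3 of 72 calls (exact 95% binomial interval of the summed calls 0.868% to 11.7%), and at 0% over 2 sites in replicate 2, where 0 of 11 calls allow a share of up to 27.3%. The RefSeq start, for which the sequence is printed above, lies 9685 bp further downstream. Within 1 kb of it, CC was at 84.4% over 26 sites and 57.2% over 11 sites. The low promoter level of Cyp1a1 was thus that of the upstream start. The RefSeq start lies inside the gene span, so the CC-rich sites around it count toward the gene body of Cyp1a1 here. Cyp1a2, a neighbouring gene of liver drug metabolism that is read from the other strand, had few promoter sites, with 14.9% over 4 and 6.67% over 3.

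The letters GCGTG, the core of the element that the aryl hydrocarbon receptor binds, were searched on both strands. They occurred in 16 of 73 members with a RefSeq promoter sequence of 300 bases, or 21.9%, against 32.4% of 32851 RefSeq promoters. The median number of CGs in these windows was 3 and 7. A member counted when any of its starts had a match, with the highest CG number of its starts. The 32851 promoters counted each apart, so the units of the comparison differ. In the 2 kb upstream of the RefSeq start of Cyp1a1 there were 12 such CpGs, of which 7 were read in replicate 1, with a CC level of 85.1% against 85.8% at the other CpGs. In replicate 2 none of the 12 was read. Upstream of Cyp1b1 7 of 12 were read in replicate 1, with CC at 69.9% against 90.2% at other CpGs, and 3 in replicate 2, with 94.4% against 91.5%. The lower value in replicate 1 came from the sites at -1655 and -1681 bp from the start, with 9.09% over 11 calls and 0% over 9 calls, neither of which was read in replicate 2. Neither of the 2 such CpGs upstream of Cyp1a2 was read. A match of these letters is a description of the sequence and not a binding site.

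Promoters of sterol and bile acid genes ran from CC-rich to mostly MM. Cyp46a1, the cholesterol hydroxylase of brain, had a promoter CC level of 92.1% and 84.6%, Cyp39a1, an oxysterol hydroxylase, 89.5% and 87.7%, and Cyp27a1, the mitochondrial sterol hydroxylase, 78.2% and 77.8%. Cyp7b1, another oxysterol hydroxylase, was intermediate at 64.7% and 55.6%. Cyp7a1, the rate-limiting enzyme of bile acid synthesis, had 11.9% over 14 sites and 4% over 5 sites, and Cyp8b1, which makes the precursor of cholic acid, had 8.08% over 20 sites and 17.8% over 3. Their promoter MM levels were 67.2% and 69.0% for Cyp7a1 and 67.1% and 63.3% for Cyp8b1. Cyp7a1 and Cyp8b1 lay below the other 4 genes in both replicates.

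In the steroid hormone genes, promoter CC at the GENCODE starts lay at 34.9% or less, where the medians of the 44 members were 38.4% and 31.2%. Cyp19a1, or aromatase, had CC at 14.5% and 17.7%, Cyp17a1, which starts androgen synthesis, at 10.6% and 8.49%, Cyp11b1, which makes corticosterone, at 17.7% and 6.67%, and Cyp11b2, the aldosterone synthase, at 16.99% and 9.47%. Cyp21a1, the adrenal steroid hydroxylase, stood at 34.9% over 11 sites and 34.2% over 4. Cyp11a1, which cleaves the side chain of cholesterol, had 32.4% and 30.7% at the GENCODE start, but 68.3% over 51 sites and 74.2% over 13 sites around its RefSeq starts, the nearest of which lies at -8387 bp from it. The choice of start therefore moved Cyp11a1 from below to above the medians of the members, and at the GENCODE starts Cyp11a1 and Cyp21a1 lay close to these medians. Of the 73 members with a RefSeq sequence, 4 had their nearest start over 1 kb away, and the other 2 were Cyp2c29 and Cyp2d9. Their RefSeq starts lie 17680 and 18940 bp downstream of the GENCODE starts. The gene bodies of Cyp2c29 and Cyp2d9, and their calls below, thus include sequence upstream of the RefSeq start.

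Vitamin D and retinoic acid genes included both CC-rich and CC-poor promoters. Cyp24a1, which degrades active vitamin D, had a promoter CC level of 86.1% and 89.0%, and Cyp27b1, which makes it, 74.0% and 80.6%. Cyp2r1, which makes the circulating form, stood at 44.9% and 45.3% although its CpG ratio was 0.638, and its promoter HC/CH level was 9.76% over 29 sites and 13.4% over 13 sites, against medians of 4.19% and 2.59% over the 44 members and 1.63% and 1.70% over all genes. The difference of these medians, of 1.72 percentage points on average, was 0.53 in the 2 kb upstream, with 1.38 in replicate 1 and -0.32 in replicate 2. Cyp26a1, which clears retinoic acid in the embryo, had CC at 80.9% and 79.0%. Cyp26c1, its neighbour on chromosome 19, had 69.4% over 36 sites and 31.7% over 8 sites, a spread too wide to place it. Cyp26b1 had 14.5% over 16 sites and 0% over 2, where 0 of 11 calls allow a share of up to 27.3%. Cyp26b1 was thus the CC-poor member of family 26 in the promoter, in contrast to its gene body below.

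**Figure D2:**
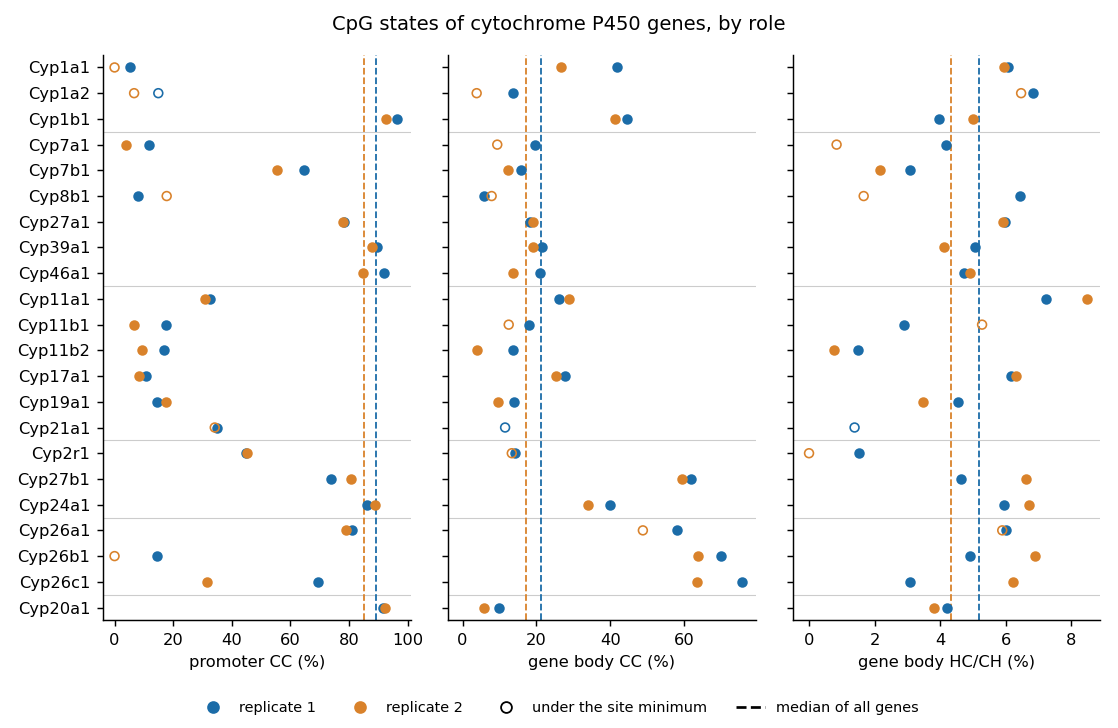
Promoter CC, gene body CC and gene body HC/CH (percentage of calls) of 22 P450 genes in rows ordered by role, from family 1 through sterol, steroid hormone, vitamin D and retinoic acid genes to the orphan Cyp20a1, with replicate 1 in blue and replicate 2 in orange, open circles for values under the minimum of sites and dashed lines for the medians of all genes. At the GENCODE starts plotted here, the steroid hormone genes sit to the left in promoter CC, at 34.9% or less (Cyp11a1 had 68.3% and 74.2% at its RefSeq starts), and the 3 retinoic acid genes sit to the right in gene body CC, from 48.8% to 75.7%.

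Around the gene start, CC was at its highest in every set, and over all genes HC/CH was at its lowest there. In the first 500 bp after the start, CC was at 43.6% and 32.9% in the larger subfamilies, 71.8% and 69.7% in the smaller ones, and 88.2% and 84.8% over all genes. HC/CH in the same bin was at 4.30% and 2.47%, 2.78% and 4.38%, and 1.27% and 1.59%. For the P450 sets the HC/CH bins varied widely between the replicates, so that no bin-to-bin change is read from them.

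**Figure D3:**
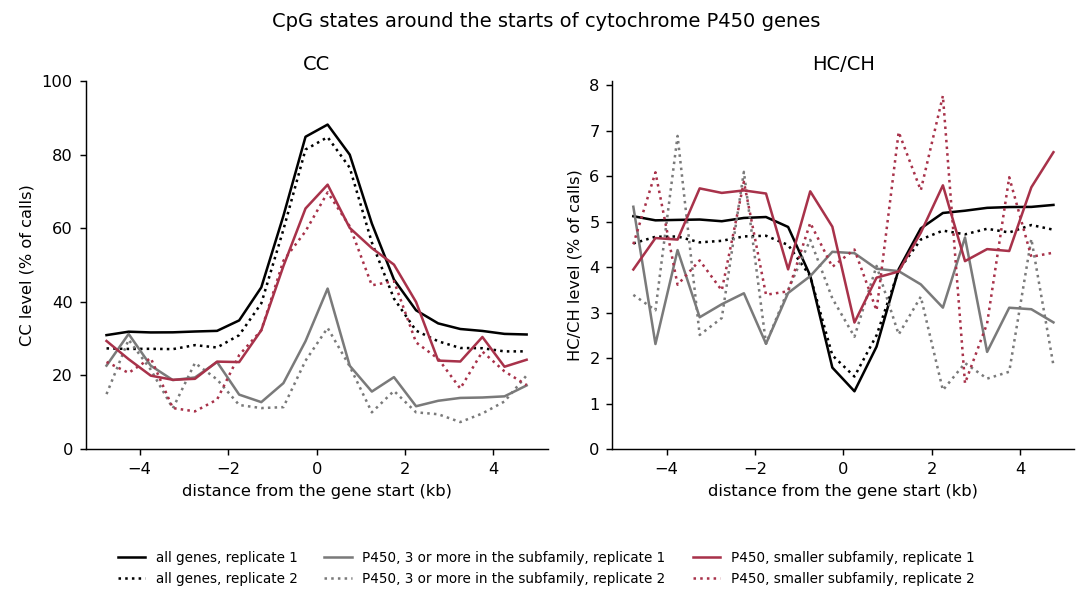
CC (left) and HC/CH (right) level in percent of calls against the distance from the gene start in kb, in bins of 500 bp, for all genes (black), P450 genes of subfamilies with 3 or more members (grey) and P450 genes of smaller subfamilies (red), with solid lines for replicate 1 and dotted lines for replicate 2. At the peak the CC lines keep the order all genes, smaller subfamilies, larger subfamilies in both replicates, while the HC/CH lines of the P450 sets cross.

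In gene bodies, P450 genes held less HC/CH than other genes. The median HC/CH level of the 64 members was 3.34% in replicate 1 and 2.87% in replicate 2, a mean of 3.11% ± 0.336 (SD, n = 2), against 5.20% and 4.33% over 14596 genes. Below the all-gene median in both replicates lay 42 of 64 members, or 65.6%, against 39.4% of all genes. The difference of the medians, of -1.66 percentage points, shrank to -0.65 among the 28 members with at least 50 sites in each replicate and to -0.91 when the whole span and 2 kb upstream were used. The other states differed from all genes as well. The CC medians were 18.6% and 13.4% against 21.3% and 17.2%, the MM medians 58.3% and 62.9% against 55.7% and 60.6%, and the MC/CM medians 14.4% and 15.8% against 12.2% and 13.9%. The CC difference of -3.24 percentage points turned to 0.21 with at least 50 sites and was -10.4 over the whole span and 2 kb upstream. The MM difference of 2.47 fell to 0.54 there, with 1.61 in replicate 1 and -0.53 in replicate 2, and was 8.74 over the whole span. The MC/CM difference of 2.00 was 3.13 over the whole span.

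HC/CH was lower in the larger subfamilies than in the smaller ones. The 40 genes of the larger subfamilies had medians of 2.91% and 2.30%, and the 24 genes of smaller subfamilies had 4.83% and 5.84%. In the larger subfamilies 33 of 40 members lay below the all-gene median in both replicates, or 82.5%, and in the smaller ones 9 of 24, or 37.5%. The difference of -2.73 percentage points between these groups ranged from -3.54 to -1.92 between the replicates and was -1.66 with at least 50 sites. Other gene families with tandem clusters were read at 67 of 1087 olfactory receptor genes and 26 of 49 keratin genes with enough sites. Below the median in both replicates lay 41 of these 67 (61.2%) and 17 of these 26 (65.4%). Among genes with enough sites, the low level was thus not particular to P450 genes.

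**Figure D4:**
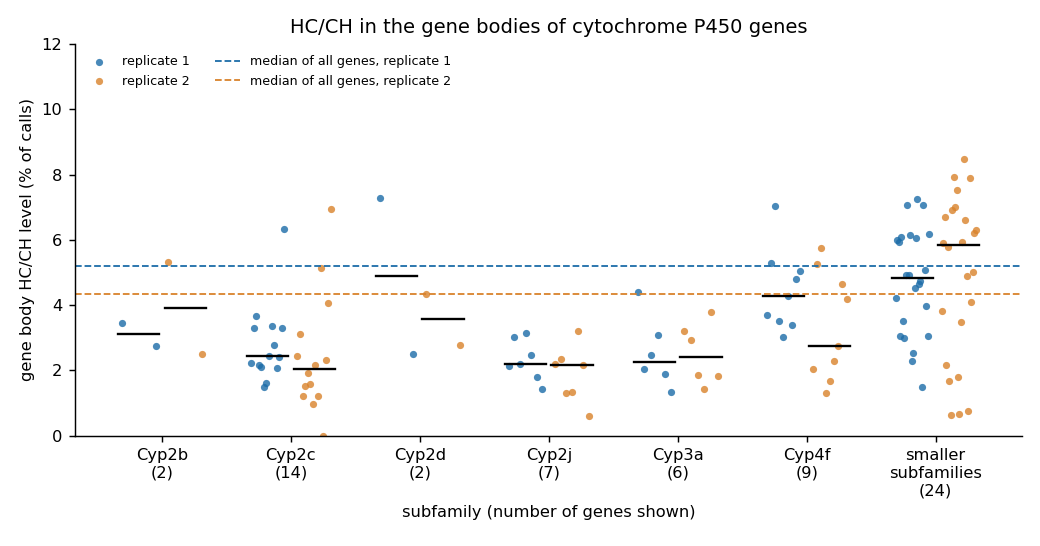
Gene body HC/CH level (percentage of calls, 1 point per gene) of the 64 P450 genes with at least 20 sites in each replicate, by subfamily, with replicate 1 in blue, replicate 2 in orange, black bars for the subfamily medians and dashed lines for the medians of all genes (5.20% and 4.33%). Nearly all points of Cyp2c, Cyp2j and Cyp3a lie under both lines, while the smaller subfamilies lie on both sides, and Cyp2a and Cyp4a have no gene with enough sites.

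Among the larger subfamilies, ranked by the mean of the replicates, HC/CH over all gene body sites was lowest in Cyp4a, with 2.34% and 1.15%. Among them it was highest in Cyp4f, with 4.77% and 3.87%, against 4.82% and 4.14% over all genes. Cyp2j, whose epoxygenases act on arachidonic acid, had 2.49% and 1.94%, Cyp3a, the main drug oxidases of liver, 2.56% and 2.46%, and Cyp2c, with drug and arachidonic acid oxidases, 3.06% and 2.99%. Cyp2a had 2.26% and 3.88% over 109 and 37 sites, Cyp2d 4.13% and 2.97%, and Cyp2b 3.55% and 4.64%. Cyp4a, Cyp2j, Cyp3a and Cyp2c lay below all genes by over 1 percentage point in both replicates. For Cyp4a the mean difference of -2.74 percentage points shrank to -0.84 at sites of at least 10 calls, with -1.83 in replicate 1 and 0.16 in replicate 2. At that minimum Cyp2j was lowest, at -2.61, and Cyp2b highest, at 0.71 beside -0.59 for Cyp4f, so that neither end of the order held. Cyp2b lay below all genes in replicate 1 and above it in replicate 2, and neighbours in this order often changed places between the replicates.

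The surroundings of the larger subfamilies also held less HC/CH than those of other genes. In the non-genic sequence within 50 kb of the 40 genes of larger subfamilies, the median HC/CH level was 3.05% and 3.15%, beside 2.91% and 2.30% in their gene bodies and against flanks of 4.80% and 4.21% over 14008 genes. For 23 genes of smaller subfamilies the flanks were at 4.80% and 3.95%, close to those of all genes, beside 4.92% and 5.91% in the bodies. In the larger subfamilies the gene body was below its flanks for 22 of 40 genes in replicate 1 and 24 of 40 in replicate 2, against 5447 and 6471 of 14008 genes. In the smaller ones this held for 11 and 6 of 23 genes. Flanks of neighbouring genes in 1 cluster overlap, so these genes are not independent.

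Each gene body was also tested on its summed calls against the level over all gene bodies with an exact 2-sided binomial test and Benjamini-Hochberg adjustment over 14596 genes in each replicate and state. A gene was called when the adjusted p was under 0.05 in both replicates with the same sign, and the test covers counting error only. HC/CH was higher in 4 of 64 members, against 14.9% of all genes, and lower in 7, against 10.8%. With a quasi-binomial test, which allows for spread between sites, 2 of the 7 lower calls remained, against 8.27% of all genes, and all 4 higher calls, against 13.7%. HM/MH was higher in 0 members, against 2.27% of all genes, and lower in 1, Cyp2c29, against 2.77%. With the quasi-binomial test the call of Cyp2c29 was lost. That test called 0 members in either direction, against 1.82% of all genes higher and 1.88% lower. At an unadjusted p under 0.05 in both replicates, 2 members were higher, against 5.17% of all genes, and 5 lower, against 5.71%. With both replicates and an adjusted p required, these shares of called members lie near or under those of all genes. In replicate 1 alone, the deeper library, HC/CH was lower in 33 of 64 members, against 21.2% of all genes, and HM/MH in 19, against 1756 of 14596 genes. In replicate 2 alone these were 7, against 12.6%, and 2, against 4.71%. The count of lower members therefore depends on whether replicate 2 is required. Higher HC/CH was called in 7 members in replicate 1 alone, against 35.7% of all genes. In replicate 2 alone it was called in 5, against 2479 of 14596 genes.

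The 4 members with higher HC/CH were Cyp2s1, Cyp11a1, Cyp2ab1 and Cyp2c23. Cyp2s1, an extrahepatic P450 that responds to dioxin, had a gene body HC/CH level of 7.07% and 7.94%, and its summed calls lay 2.52 and 3.94 percentage points above all gene bodies (exact binomial test, adjusted p = 6.88e-05 and 0.00259). Cyp11a1 had the highest gene body level by its lower replicate, with 7.24% and 8.46%, and lay 2.42 and 4.56 points above (adjusted p = 1.07e-04 and 0.00503 by the same exact test). Cyp2ab1 had 7.07% and 7.90%, and Cyp2c23, an arachidonic acid epoxygenase of kidney, had 6.34% and 6.94%. Cyp2c23 lies apart from the other 14 Cyp2c genes on chromosome 19, and the 13 of these with enough sites had lower levels in both replicates.

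The 7 members with lower HC/CH were Cyp2j5, Cyp2c29, Cyp2c37, Cyp4v3, Cyp4b1, Cyp7b1 and Cyp2j11. Cyp2j5, an epoxygenase of kidney and liver, had 1.43% over 101 sites and 0.595% over 28 sites, the lowest level of all members by the higher replicate. Cyp7b1 had the most sites of these, with 3.07% over 709 sites and 2.16% over 269, and lay 1.69 and 2.08 percentage points below all gene bodies (adjusted p = 1.31e-13 and 3.18e-05 by the exact binomial test). In Cyp2c37 the level was 2.08% in replicate 1, and 0 of 133 calls were HC/CH in replicate 2, which allows a share of up to 2.26%. The other low levels of the 5 lowest members were those of Cyp11b2, with 1.51% and 0.758%, Cyp2c39, with 1.51% and 1.57%, Cyp2c67, with 1.61% and 0.967%, and Cyp3a59, with 1.35% and 1.83%. At these levels replicate 2 rests on few calls, and the order among them is not resolved.

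CC was higher in 15 of 64 gene bodies, against 34.0% of all genes, and lower in 26, against 36.7%. MM was higher in 19, against 28.4%, and lower in 15, against 32.8%. With the quasi-binomial test, 16 were lower in CC, against 3791 of 14596 genes, and 10 were higher in MM, against 3115. The largest differences belonged to retinoic acid and vitamin D genes. Cyp26b1 had a gene body CC level of 69.9% over 274 sites and 63.6% over 61 sites, Cyp26c1 of 75.7% over 155 and 63.3% over 44, and Cyp27b1 of 61.8% over 66 and 59.3% over 32, in each case at least 41.2 percentage points above all gene bodies on summed calls in replicate 1 (for Cyp26b1 by 45.98 and 45.66 points, adjusted p = 8.21e-76 in replicate 2 by the exact binomial test). Cyp26a1, with 58.0% over 51 sites and 48.8% over 16, was below the minimum of sites in replicate 2. Over the gene bodies of all 3 genes of family 26, the pooled CC level was 70.5% and 61.6%. In the non-genic flanks within 50 kb, CC was at 12.7% and 7.14% for Cyp26b1 and at 24.7% and 21.1% for Cyp26c1. Around Cyp27b1 the flanks were at 59.3% in both replicates, close to the gene body.

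Cyp2c37 and Cyp1b1 completed the 5 highest CC levels by the lower replicate, with 47.5% and 44.8% for Cyp2c37 and 44.6% and 41.4% for Cyp1b1. Other members with higher CC included Cyp4f18, Cyp2s1, Cyp4f39, Cyp24a1 and Cyp4f16. At the low end stood Cyp2e1, which oxidizes ethanol, with 9.09% and 5.49%, Cyp20a1 with 9.75% and 5.87%, Cyp4b1 with 10.2% and 6.16%, Cyp2c67 with 10.2% and 4.65%, and Cyp4v3 with 10.0% and 10.2%. Cyp20a1 and Cyp4v3 thus combined CC-rich promoters with some of the most methylated gene bodies among the members.

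Asymmetric methylation without hmC, MC/CM, was higher in 7 members, against 10.1% of all genes, and lower in 5, against 17.8%. The quasi-binomial test kept 4 of the higher calls, against 8.24% of all genes, and 4 of the lower ones, against 13.9%. In replicate 1 alone 28 members were higher, against 24.4% of all genes, and in replicate 2 alone 10, against 11.8%. Lower were 11 members in replicate 1 alone, against 39.6% of all genes, and 6 in replicate 2 alone, against 19.3%. The higher members were Cyp3a59 and Cyp3a16, Cyp3a13, which lies apart from the other Cyp3a genes on chromosome 5, Cyp4b1, Cyp2c40, Cyp2d9 and Cyp7b1. Cyp7b1 had an MC/CM level of 16.9% and 17.9%, and its summed calls lay 3.78 and 3.15 percentage points above all gene bodies (adjusted p = 6.57e-21 and 0.00224, exact binomial test). The lower members were Cyp26c1, Cyp26b1, Cyp27b1, Cyp2t4 and Cyp2s1, of which Cyp26c1, Cyp26b1 and Cyp27b1 had the highest gene body CC. In the larger subfamilies 33 of 40 members lay above the all-gene MC/CM median in both replicates, or 82.5%, against 39.8% of all genes.

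Among CC, MM, MC/CM, HC/CH and HM/MH, it was HM/MH that differed most between the replicates relative to its level. The gene body medians were 3.57% and 1.99% over the members, against 4.31% and 2.72% over all genes, so the replicates differed by more than the members did from other genes. With at least 50 sites in each replicate, the difference of the members to all genes was smaller. Ranked on the lower replicate, the highest levels were those of Cyp2s1, with 5.07% and 5.41%, and Cyp2u1, with 5.58% and 4.97%, and ranked on the higher replicate the lowest was that of Cyp2c38, with 1.63% and 1.54%. Call rates of the spike-in duplexes were averaged over the 2 orientations of each state, which makes the HM and MH rates of MM molecules equal. In replicate 1, 2.26% of MM molecules were called HM or MH in each orientation, against 0.233% in replicate 2. MC molecules were called HC in 3.49% and 0.615%. After correction with these rates, the HM/MH medians were 0.946% and 1.62% against 1.61% and 2.33% over all genes, and the HC/CH medians were 2.03% and 2.34% in the larger subfamilies, 4.42% and 6.05% in the smaller ones, and 4.55% and 4.29% over all genes. In both replicates the larger subfamilies stayed below the smaller ones and below all genes. Rank correlation of the 2 replicates across the 64 members (Spearman's rho, a description only) reached 0.871 in CC, 0.742 in HC/CH and 0.412 in HM/MH. The points share the line, the reference and the CpG content of each gene.

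Over all members with enough sites, HC/CH did not differ between exons and introns in a fixed direction. Of 49 members with at least 5 sites of each, 15 had higher HC/CH in exons in both replicates, or 30.6%, against 31.5% of all genes. The median difference was 0.49 percentage points in replicate 1 and -0.16 in replicate 2, which differ in sign. In the 22 genes of larger subfamilies it was 0.55 and 0.29, with 7 higher in exons in both replicates and 2 lower. In the 27 genes of smaller ones it was 0.20 and -0.82, with 8 higher and 11 lower. Over all genes 31.5% were higher and 26.3% lower. For MM the median differences were -3.82 and -7.66 percentage points over the 22 genes of larger subfamilies, 2.86 and 3.19 over the 27 genes of smaller ones, and 1.24 and 1.62 over all genes. In the larger subfamilies exon MM was below intron MM in both replicates for 12 of 22 genes and above it for 5, and in the smaller ones below for 7 of 27 and above for 13, against 31.7% below and 42.2% above over all genes. The MC/CM differences were -2.30 and -0.11 over the 49 members and -1.45 and -1.60 over all genes. On summed calls over the gene bodies of all members, hmC opposite C lay on the sense strand in 1.90% and 1.94% of calls and on the antisense strand in 1.82% and 1.72%, a difference of 0.08 and 0.22 percentage points. For hmC opposite mC the difference was -0.06 and 0.06, and for mC opposite C it was 0.03 and 0.02. In the promoters, with fewer calls, the differences were -0.26 and 0.14 for hmC opposite C, 0.18 and 0.26 for hmC opposite mC, and -0.28 and -0.14 for mC opposite C.

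Partners and regulators of the P450 system were read in the same way. Of 6 redox partners, which pass electrons to P450s, CC was higher in 5 and lower in 1, against 34.0% and 36.7% of all genes. Por, the reductase that serves all microsomal P450s, had a gene body CC level of 34.1% and 26.95% and an HC/CH level of 6.60% and 7.23%, and it was the 1 redox partner called higher in HC/CH, against 14.9% of all genes. Of 15 regulators, CC was higher in 5 and lower in 6, near the same shares of all genes. HC/CH was higher in 1 regulator, Nr5a2, and lower in 3, against 14.9% and 10.8%. Promoters of Nr1i2 and Nr1i3, the receptors that sense foreign compounds and bile acids in liver, had CC levels of 6.71% and 2.86% and of 14.1% and 8.32%, while that of Ahr had 89.0% and 94.4%. Over the 12 regulator promoters with enough sites, CC had medians of 57.6% and 54.3%. The range was 6.71% to 96.5% in replicate 1 and 2.86% to 100% in replicate 2. Of the 3 P450 genes with other symbols, Cyp51, which acts in cholesterol synthesis, had a promoter CC level of 95.6% and 91.8%. Of 3 steroid transport and dehydrogenase genes, only Star had enough gene body sites, and its CC was called lower.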

How the data were processed

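SCoTCH-seq libraries of 2 passages of E14 cells were analysed. The authors filtered and trimmed read pairs in Cutadapt (4.6), used BSBolt for the alignment to GRCm38 and Picard (3.1.1) for the removal of duplicates, and called 1 state per CpG site of each read pair. The authors deposited counts of calls of each state per CpG site, with the depth, for sites of at least 5 calls outside blacklisted regions, each replicate apart. The deposited percent values are count divided by depth and were not corrected by the spike-ins. All autosomal sites fell on reference CpGs.

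Levels are means of per-site percent values, computed in Python (3.11.15) with pandas (2.3.3) and NumPy (2.4.6), with tests from SciPy (1.17.1) and plots from Matplotlib (3.10.9). Sites were assigned to promoters, then exons, then introns. Medians give each gene equal weight. Intervals are exact Clopper-Pearson, and a count of 0 is given with the share that 3 calls would make. Both cover counting error only. The paper names 2 passages, not separate derivations of the line, so the spread may be partly technical.

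Summed calls per gene body were tested with an exact binomial test. On simulated HC/CH data over 14596 genes, with 50 genes at each fold, 62% of 2-fold and 26% of 0.5-fold changes were called. At 0.75-fold and at 1.33-fold 2% each were called, and 0 of 14396 unchanged genes. No error rate on real genes is read from this simulation. Close paralogs can share reads, and how reads were split between them was not tested. Open to naming by rule were all members of families 1, 7, 8, 11, 17, 19, 20, 21, 24, 26, 27, 39 and 46. To these came the 5 highest and 5 lowest gene bodies in HC/CH, HM/MH and CC and the 5 highest promoters in CC. Called members were open too, up to 10 per state and direction. Not all of these are named, and any other gene was named after its values were seen. Members and lists were chosen with earlier results of these data known. Promoter sequences are from RefSeq (GRCm38.p6), which held 73 of the 94 members. Alternatives were summed calls, a minimum of 10 calls, shared sites, spike-in correction, other promoter definitions, a minimum of 50 sites, a quasi-binomial test and each replicate alone. Added after seeing the data were 60% coverage, members outside Cyp2c, RefSeq starts, each replicate alone for strands and 50 sites for subfamily size.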

Additional observations from a re-analysis of the deposited data

How the results depend on the processing

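Of 224 alternative values, 157 were the same. A level was the same when it kept its sign and lay within the replicate SD of the reported value. A count of calls was the same within a set fold range. Of the others, 7 reversed in sign, and 8 counts of calls rose and 5 fell out of that range. The rest moved by at least the SD and kept their sign. The cause of these changes was not tested. With at least 50 sites per replicate (28 members), the gene body difference to all genes reversed to 0.21 percentage points in CC and was 0.54 in MM (of opposite signs in the replicates), 1.43 in MC/CM, -0.65 in HC/CH and -0.32 in HM/MH. With the whole span and 2 kb upstream these were -10.4, 8.74, 3.13, -0.91 and -0.49. Among members with 60% of sites covered they were -2.34, 1.58, 1.65, -1.35 and -0.66. Outside Cyp2c, MM was at 1.61, MC/CM at 1.44, HC/CH at -1.28 and HM/MH at -0.67. At sites shared by the replicates, CC was at -2.40 and HM/MH at -0.77, and with spike-in correction MM was at 2.79 and HM/MH at -0.69. The promoter CC difference was -50.0 at shared sites, -38.5 in the 2 kb upstream and -49.3 at RefSeq starts, and the promoter HC/CH difference of 1.72 was 0.53 in the 2 kb upstream, with opposite signs in the replicates.

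The exon minus intron HC/CH median reversed to -0.0034 on summed calls and -0.17 at shared sites, and single replicates gave -0.16 to 0.49. Cyp2b minus all genes reversed to 0.71 at a minimum of 10 calls, and single replicates gave -1.27 to 0.50. At that minimum Cyp2d was at -1.96, Cyp2j at -2.61, Cyp4a at -0.84 and Cyp4f at -0.59. At shared sites Cyp2d was at -1.47, Cyp2j at -2.06 and Cyp4a at -2.24, and on summed calls Cyp2j was at -2.15. The strand difference of HM/MH ran from -0.0632 to 0.0551 over single replicates.

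With the quasi-binomial test, 16 members were called lower in CC, 10 higher in MM, 4 higher in MC/CM, 2 lower in HC/CH and 0 lower in HM/MH. Over all 14596 genes the same test called 3791 lower in CC and 3115 higher in MM. It called 8.24% of all genes higher in MC/CM, 8.27% lower in HC/CH and 1.88% lower in HM/MH. In single replicates, which drop the demand on the other, the calls were 10 to 28 for MC/CM higher, 6 to 11 for MC/CM lower, 5 to 7 for HC/CH higher, 7 to 33 for HC/CH lower, 1 to 3 for HM/MH higher and 2 to 19 for HM/MH lower. In replicate 1 the lower calls were 21.2% of all genes in HC/CH and 1756 of 14596 genes in HM/MH, and in replicate 2 they were 12.6% and 4.71%. For MC/CM the higher calls were 24.4% of all genes in replicate 1 and 11.8% in replicate 2, and the lower calls 39.6% and 19.3%. Higher calls in HC/CH were 35.7% of all genes in replicate 1 and 2479 of 14596 genes in replicate 2. In HM/MH the higher calls were 10.1% and 5.6%. A minimum of 10 calls per site left under 5 members and gave no value for gene bodies, promoters, exons against introns, subfamily size or calls. No paired analysis was possible because the study has 1 group. Depth limits replicate 2 most, in which many promoters had under 5 sites.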
